A study of Mus musculus with 6 samples.

Results

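The AP-1 and EGR immediate early genes were compared between cultures of mouse blood stem and progenitor cells transformed by MLL-AF9, a leukemia fusion oncogene. The genes were taken by exact symbol from the count table, and all 10 listed members (Fos, Fosb, Fosl2, Jun, Junb, Jund, Egr1, Egr2, Egr3 and Atf3) were found among its 23337 genes. The transformed cells had been kept in pro-lymphoid culture (3 libraries, lymphoid replicates 1, 5 and 6) or in pro-myeloid culture (3 libraries, myeloid replicates 2, 3 and 4), and MLL-AF9 was common to both. The sources used here give no cytokines, times or donors, nor whether each library had a culture of its own, so a p-value covers only the differences among libraries, which may be technical.

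AP-1 is a dimer of basic leucine zipper proteins. Jun proteins pair with each other or with a Fos protein, whereas Fos proteins need a Jun partner, and Atf3 is a related zipper protein that is induced by stress. Most genes of the group are immediate early genes: serum response factor (SRF), its MAP kinase-activated partners and CREB act on their promoters within minutes of a growth factor or stress signal, and the transcripts decay fast. EGR proteins are zinc finger factors of the same early response, and Egr1 is known for its part in macrophage differentiation. Loss of Junb in mice leads to myeloid overgrowth.

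The upstream sequences of 6 members were searched for textbook elements of the early response and are shown. The members are Fosl2 and Junb, which fell in pro-lymphoid culture, and Fos, Fosb, Jun and Egr2, which varied between libraries of 1 culture. Each sequence is the 250 bases before the RefSeq start (GRCm38.p6), with the matches of the searched motifs in capitals. The windows of Jund, which rose and whose window held no match, and of Atf3 were also searched but are not printed.
Fosl2, chr5:32136222-32136471, plus strand: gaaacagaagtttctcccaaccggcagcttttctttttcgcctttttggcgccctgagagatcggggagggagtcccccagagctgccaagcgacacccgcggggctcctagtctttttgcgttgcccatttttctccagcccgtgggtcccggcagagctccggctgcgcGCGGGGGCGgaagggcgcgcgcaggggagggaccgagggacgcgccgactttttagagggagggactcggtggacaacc
Junb, chr8:84978749-84978998, minus strand: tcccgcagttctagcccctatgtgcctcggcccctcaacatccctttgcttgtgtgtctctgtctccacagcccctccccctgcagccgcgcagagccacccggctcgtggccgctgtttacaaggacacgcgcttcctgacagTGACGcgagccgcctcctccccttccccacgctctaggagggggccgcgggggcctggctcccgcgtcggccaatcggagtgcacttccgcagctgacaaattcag
Fos, chr12:85473640-85473889, plus strand: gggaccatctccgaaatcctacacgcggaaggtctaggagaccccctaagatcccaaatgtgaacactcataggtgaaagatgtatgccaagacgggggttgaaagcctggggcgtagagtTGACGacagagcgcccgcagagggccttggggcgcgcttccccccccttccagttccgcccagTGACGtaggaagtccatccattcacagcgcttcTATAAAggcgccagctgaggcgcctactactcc
Fosb, chr7:19310046-19310295, minus strand: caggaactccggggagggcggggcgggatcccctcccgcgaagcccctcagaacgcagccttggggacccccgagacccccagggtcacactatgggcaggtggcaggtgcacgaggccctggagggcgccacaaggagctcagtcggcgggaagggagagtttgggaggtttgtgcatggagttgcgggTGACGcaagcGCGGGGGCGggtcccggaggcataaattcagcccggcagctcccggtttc
Jun, chr4:95052223-95052472, minus strand: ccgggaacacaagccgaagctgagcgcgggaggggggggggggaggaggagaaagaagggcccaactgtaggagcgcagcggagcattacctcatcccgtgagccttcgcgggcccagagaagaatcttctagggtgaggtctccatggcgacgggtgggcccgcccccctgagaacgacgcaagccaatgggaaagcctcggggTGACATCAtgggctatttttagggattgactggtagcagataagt
Egr2, chr10:67537619-67537868, plus strand: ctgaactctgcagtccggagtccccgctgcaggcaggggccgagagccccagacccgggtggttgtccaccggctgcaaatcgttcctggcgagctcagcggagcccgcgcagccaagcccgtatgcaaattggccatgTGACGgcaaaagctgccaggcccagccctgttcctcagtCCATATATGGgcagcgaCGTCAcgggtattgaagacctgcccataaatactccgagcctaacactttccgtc

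Both strands of 8 member windows were searched (Egr1 and Egr3 had no entry), and the same search was made in all 32851 windows of the table. Egr2 had 5 windows, and only the one nearest the start of the counting annotation was used. The Jund window lies before a start that is 1210 bases from the GENCODE M21 start of the gene. For Fosl2, Egr2 and Atf3 this distance is 671, 2394 and 34706 bases. TGACG, the core letters of the site bound by CREB and ATF proteins, which also lies inside TGACGTCA, was found for Fos, Fosb, Junb, Egr2 and Atf3, 5 of 8 members, and in 17.8% of all windows. The CArG box, the element bound by SRF, was found for Egr2 only among the 8, at 72 to 63 bases before the start, and in 1.47% of all windows. The Jun window held TGACATCA, a variant AP-1 element known from this promoter, at 45 to 38 bases before the start, as did 2.93% of all windows. GCGNGGGCG, the letters read by EGR zinc fingers, occurred for Fosb and Fosl2 and in 4.7% of all windows. TATAAA occurred for Fos and in 12.4% of all windows. TGACTCA, the consensus AP-1 element, occurred in 4.46% of all windows and TGACGTCA, the full CREB site, in 1.55%, and neither occurred in the 8 member windows. A missing match, also of the CArG box, says only that the letters are not in these 250 bases, and elements farther upstream were not searched.

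The libraries held 34972488 to 46724382 counts, and 3 counts in 1 library correspond to 0.0650 to 0.0888 CPM, the counts-per-million unit used here, with TMM (edgeR) scaling of each library. The first principal component parted the cultures, and on the second myeloid replicate 2 (52.9) stood apart from myeloid replicates 3 and 4 (-32.0 and -19.5). The progenitor genes Kit and Cd34 and the pan-leukocyte gene Ptprc (CD45) were present in all libraries. Of the stromal markers, Col1a2, Col3a1, Dcn and Lum had 0 counts throughout, as had the globin genes Hba-a1 and Hbb-b1 and the T cell gene Cd3e. The summed macrophage markers overlapped between cultures (269 to 606 CPM in pro-lymphoid and 336 to 691 CPM in pro-myeloid libraries). In bulk RNA, fewer cells of a type and less RNA per cell cannot be told apart.

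All 10 members passed the filter on low counts. In pro-lymphoid against pro-myeloid culture 1 rose, 2 fell and 7 did not pass at an adjusted p of 0.05 (edgeR). Of all 12477 genes tested 37.4% passed, 16.8% as higher and 20.6% as lower, so that 3 of 10 is near the background. Fosl2 and Junb fell and Jund rose, and these are also the 3 members whose libraries did not overlap between cultures, where 53.5% of all tested genes did not overlap (26.4% with the pro-lymphoid libraries above and 27.2% below). The median log2 fold change of the members was -0.23, against -0.00019 for all tested genes.

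**Figure D1:**
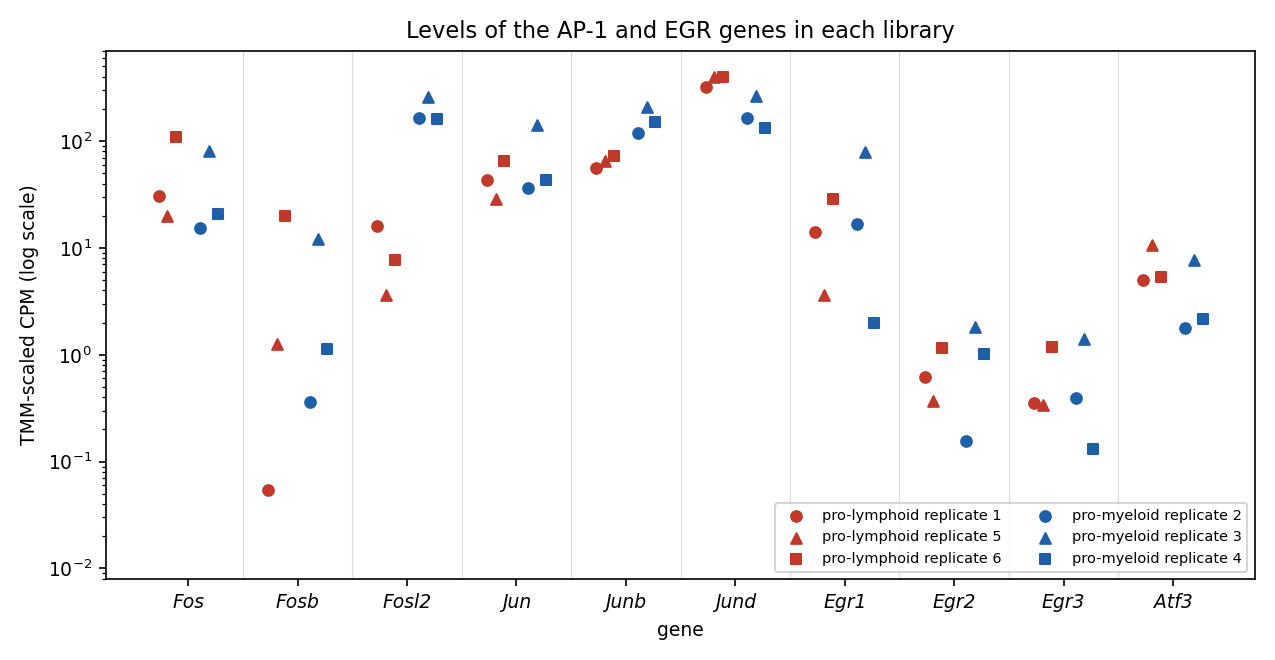
TMM-scaled CPM (y axis, log scale) of the 10 AP-1 and EGR genes (x axis), 1 point per library, pro-lymphoid libraries in red on the left and pro-myeloid libraries in blue on the right of each gene. Fosl2 is separated most widely, at 3.61 to 16.1 against 162 to 260 CPM, and Fos, Fosb, Jun, Egr1, Egr2, Egr3 and Atf3 overlap between the cultures.

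Fosl2, which encodes the Fos-family protein Fra-2 that lacks the strong activation domain of c-Fos, had the largest difference of the 10 members. It had 16.1, 3.61 and 7.66 CPM in lymphoid replicates 1, 5 and 6, against 164, 260 and 162 CPM in myeloid replicates 2, 3 and 4. The highest pro-lymphoid library lay far below the lowest pro-myeloid one. Fosl2 was 21.4-fold lower in pro-lymphoid culture (95% confidence interval 8.70 to 52.8-fold; edgeR adjusted p = 0.00129, log2 fold change -4.42 ± 0.55, SE; chromosome 5 of mm10, 32136472 to 32157839, plus strand). The log2 fold change ran from -5.11 to -4.04 with each library left out in turn, and the call held each time.

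Junb, a Jun-family protein that is a weaker activator than c-Jun and restrains proliferation, was the other member that fell. Its values were 55.4, 64.4 and 71.7 CPM in lymphoid replicates 1, 5 and 6, against 118, 206 and 150 CPM in myeloid replicates 2, 3 and 4. The pro-lymphoid libraries lay close together, and all were below the pro-myeloid ones. Junb was 2.48-fold lower (95% confidence interval 1.74 to 3.53-fold; log2 fold change -1.31 ± 0.22, edgeR adjusted p = 0.00387; chromosome 8, 84976909 to 84978748, minus strand). This call also held with any library left out (log2 fold change -1.48 to -1.08).

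Jund, the Jun-family member that is expressed without induction in many tissues, rose. It had 317, 396 and 398 CPM in lymphoid replicates 1, 5 and 6, against 163, 266 and 132 CPM in myeloid replicates 2, 3 and 4. The groups did not overlap, and myeloid replicate 3 came nearest to the pro-lymphoid libraries. The rise was 1.98-fold (95% confidence interval 1.29 to 3.02-fold; log2 fold change 0.98 ± 0.26, edgeR adjusted p = 0.0236; chromosome 8, 70697739 to 70700616, plus strand). Jund did not pass when lymphoid replicate 5 (adjusted p = 0.0661), lymphoid replicate 6 (0.0778), myeloid replicate 2 (0.0507) or myeloid replicate 4 (0.0581) was left out, and without myeloid replicate 3 the log2 fold change was 1.32 (adjusted p = 0.00383). GENCODE M21 places an exon of Gm11175 on the opposite strand of Jund, as it does Junos opposite Jun, and counts without strand cannot tell them apart.

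Jun, which encodes c-Jun, did not pass. It had 42.9, 28.6 and 64.7 CPM in lymphoid replicates 1, 5 and 6, against 36.7, 141 and 43.6 CPM in myeloid replicates 2, 3 and 4. Myeloid replicate 3 was more than 2 times as high as any other library, and the other 5 libraries overlapped. The log2 fold change was -0.70 ± 0.55 (95% confidence interval -1.99 to 0.59, edgeR adjusted p = 0.349), and without myeloid replicate 3 it was 0.18.

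Fos, which encodes c-Fos, also overlapped. It had 30.5, 20.0 and 109 CPM in lymphoid replicates 1, 5 and 6, against 15.4, 80.1 and 21 CPM in myeloid replicates 2, 3 and 4. Lymphoid replicate 6 and myeloid replicate 3 were the high libraries, each above every other library of either culture. The log2 fold change was 0.45 ± 0.80 (95% confidence interval -1.43 to 2.34, edgeR adjusted p = 0.684; chromosome 12, 85473901 to 85477270), and without lymphoid replicate 6 it was -0.62.

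Fosb had the widest spread of the 10 members in pro-lymphoid culture, whereas in pro-myeloid culture Egr1 did (39.6-fold between its lowest and highest library, against 33.5-fold for Fosb). Fosb had 2, 48 and 855 counts in lymphoid replicates 1, 5 and 6 (0.0543, 1.26 and 19.9 CPM), against 14, 412 and 52 counts in myeloid replicates 2, 3 and 4 (0.365, 12.2 and 1.13 CPM). Again lymphoid replicate 6 and myeloid replicate 3 were the high libraries. The interval of the difference was correspondingly wide, at -3.42 to 4.70 on the log2 scale (edgeR adjusted p = 0.795).

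**Figure D2:**
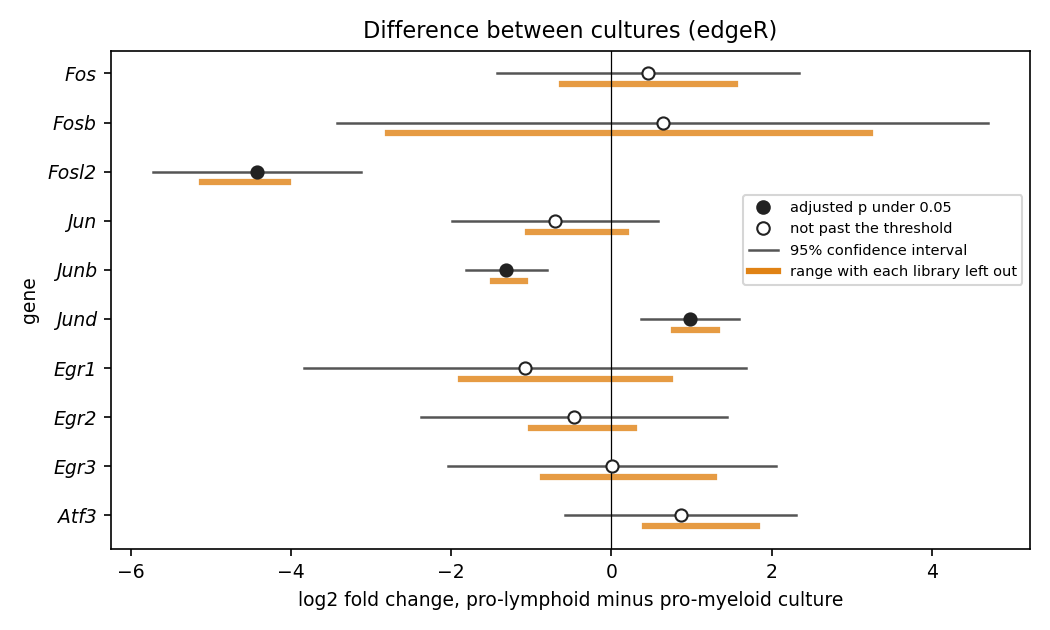
Log2 fold change of each member (x axis, pro-lymphoid minus pro-myeloid culture), filled where the edgeR adjusted p was under 0.05, with the 95% confidence interval as a thin line and the range over fits with each library left out as a thick line. The intervals of Fosl2 (-5.72 to -3.12), Junb (-1.82 to -0.80) and Jund (0.37 to 1.60) exclude 0, and those of the other 7 members include it.

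The EGR genes did not pass. Egr1 had 14.0, 3.64 and 28.6 CPM in lymphoid replicates 1, 5 and 6, against 16.7, 79.0 and 1.99 CPM in myeloid replicates 2, 3 and 4. The pro-myeloid libraries thus held both the highest and the lowest value of all 6. The log2 fold change was -1.07 ± 1.17 (95% confidence interval -3.83 to 1.68, edgeR adjusted p = 0.504; chromosome 18, 34861207 to 34864956), and without myeloid replicate 3 it was 0.73.

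Egr2 and Egr3, the close relatives of Egr1 that are known from nerve and lymphocyte development, were near the limit of detection, although both passed the filter. Egr2 had 23, 14 and 50 counts in lymphoid replicates 1, 5 and 6, against 6, 62 and 47 counts in myeloid replicates 2, 3 and 4. Egr3 had 13, 13 and 51 counts in lymphoid replicates 1, 5 and 6, against 15, 47 and 6 counts in myeloid replicates 2, 3 and 4. Lymphoid replicate 6 and myeloid replicate 3 were again the highest of their cultures. Their log2 fold changes were -0.47 ± 0.81 for Egr2 and 0.0076 ± 0.87 for Egr3 (edgeR adjusted p = 0.678 and 0.995), with 95% confidence intervals of -2.38 to 1.44 and -2.04 to 2.06.

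Atf3, the stress-induced member, had 5.02, 10.8 and 5.31 CPM in lymphoid replicates 1, 5 and 6, against 1.80, 7.64 and 2.17 CPM in myeloid replicates 2, 3 and 4. Here lymphoid replicate 5, not 6, was the highest of its culture. The log2 fold change was 0.86 ± 0.61 (95% confidence interval -0.58 to 2.30, edgeR adjusted p = 0.304), and without myeloid replicate 3 Atf3 passed as higher (1.82, adjusted p = 0.0290).

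Levels per length of exon allow the members to be ranked within a culture, and the ranks depend in part on the exon lengths used. With exon lengths of the counting annotation, in pro-lymphoid culture Jund led at 129 ± 16.0 RPKM (CPM divided by the exon length in kilobases; SD, n = 3), ahead of Junb (34.7 ± 4.45), Fos (25.3 ± 23.1), Jun (14.2 ± 5.70), Egr1 (5.02 ± 4.08), Atf3 (3.56 ± 1.63), Fosb (1.87 ± 2.95), Fosl2 (1.56 ± 1.09), Egr3 (0.442 ± 0.343) and Egr2 (0.242 ± 0.137). In that order the libraries of each pair of neighbours overlapped, except those of Jund and Junb. In pro-myeloid culture Junb led at 86.1 ± 24.2 RPKM, ahead of Jund (65.1 ± 24.4), Fosl2 (33.3 ± 9.64), Jun (23.2 ± 18.3), Fos (18.5 ± 17.1), Egr1 (10.6 ± 13.3), Atf3 (1.96 ± 1.66), Fosb (1.21 ± 1.75), Egr3 (0.450 ± 0.470) and Egr2 (0.338 ± 0.283). There the exception was Jund and Fosl2. The same counts, not recounted over other exons, were also divided by GENCODE M21 exon lengths. These are shorter for Jund (1668 against 2878 bases), which raises its value, and longer for Fosl2 (9680 against 5863 bases), which lowers its value. With GENCODE M21 lengths Jund led in both cultures, at 221.9 ± 27.6 RPKM in pro-lymphoid and 112 ± 42.1 RPKM in pro-myeloid libraries, with Junb next (27.7 ± 3.56 and 68.8 ± 19.3 RPKM). With those lengths Fosl2 (20.2 ± 5.84 RPKM) came after Jun (23.2 ± 18.3 RPKM) in pro-myeloid culture, Egr3 came after Egr2 in both cultures, and the other ranks were as before. The rank of Fosl2 was 8 in pro-lymphoid culture with either lengths, and 3 or 4 in pro-myeloid culture.

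The members of each AP-1 family made up different shares in the 2 cultures. Per length in the counting annotation, Fosl2 made up 15.8%, 5.85% and 2.23% of the summed Fos, Fosb and Fosl2 level in lymphoid replicates 1, 5 and 6, against 78.9%, 51.7% and 72.8% in myeloid replicates 2, 3 and 4. Junb made up 19.6%, 19.3% and 19.7% of the summed Jun, Junb and Jund level in lymphoid replicates 1, 5 and 6, against 48.5%, 45.0% and 57.8% in myeloid replicates 2, 3 and 4. With GENCODE M21 lengths the Junb share was 10.6%, 10.2% and 10.8% in lymphoid replicates 1, 5 and 6, against 32.0%, 30.5% and 41.3% in myeloid replicates 2, 3 and 4. Those lengths put the Fosl2 share at 11.4%, 4.10% and 1.58% in lymphoid replicates 1, 5 and 6, against 71.9%, 42.8% and 64.7% in myeloid replicates 2, 3 and 4. The size of a share thus depends on the lengths, while with either lengths both shares were separated between the cultures and the Junb share hardly varied among the pro-lymphoid libraries.

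Ratios within a library do not depend on its scaling, and were chosen after the values had been seen. The ratio of Fosl2 to Fos was 0.188, 0.0643 and 0.0252 in lymphoid replicates 1, 5 and 6, against 3.79, 1.16 and 2.75 in myeloid replicates 2, 3 and 4. It was 34.1-fold lower in pro-lymphoid culture (exact permutation p = 0.1, two-sided, the smallest that 3 against 3 libraries allow). The ratio of Jund to Junb was 3.66, 3.93 and 3.55 in lymphoid replicates 1, 5 and 6, against 0.881, 0.826 and 0.563 in myeloid replicates 2, 3 and 4, and was 4.99-fold higher in pro-lymphoid culture (exact permutation p = 0.1). Which gene of a pair is higher per length depends on the lengths used, since the counting annotation starts Jund 1210 bases before GENCODE M21 does (exon length 2878 against 1668 bases). With the same counts and GENCODE lengths, the Jund to Junb ratio was 7.90, 8.47 and 7.65 in lymphoid replicates 1, 5 and 6, against 1.90, 1.78 and 1.21 in myeloid replicates 2, 3 and 4, so that Jund was the higher per length throughout. With those lengths the Fosl2 to Fos ratio of myeloid replicate 3 was 0.790. The difference between the cultures does not depend on lengths. The ratio of Junb to Jun was also computed, and it overlapped between the cultures (exact permutation p = 0.2). With lengths of the counting annotation it was 2.23, 3.90 and 1.92 in lymphoid replicates 1, 5 and 6, against 5.59, 2.53 and 5.98 in myeloid replicates 2, 3 and 4.

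**Figure D3:**
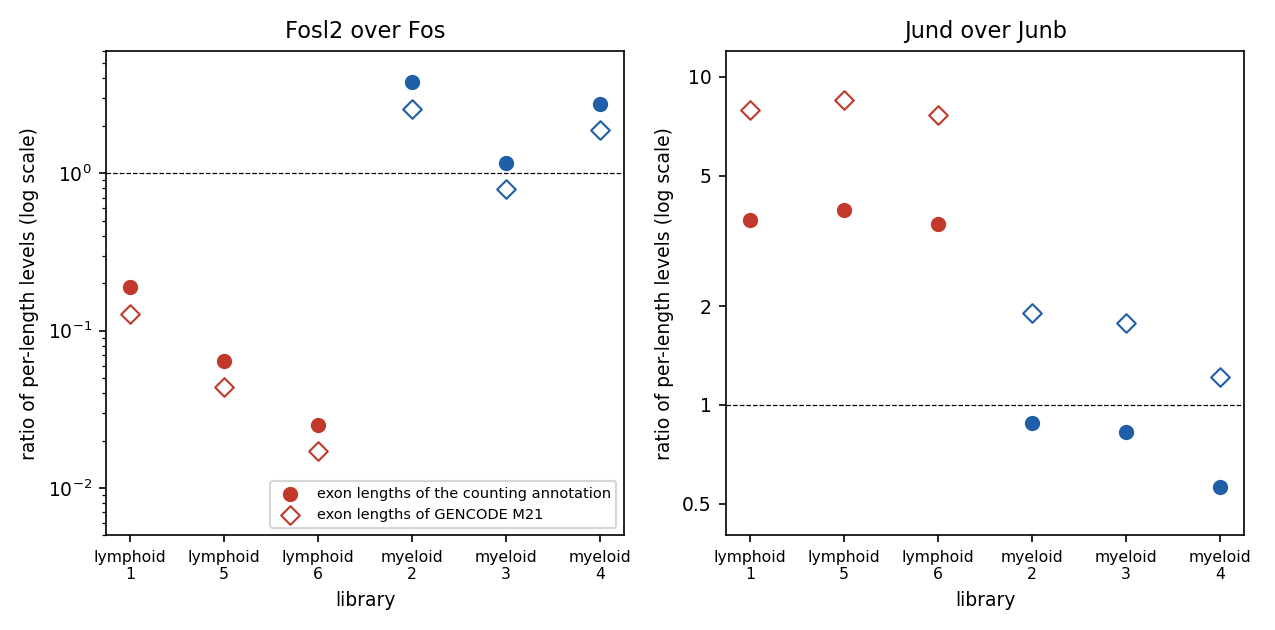
Ratio of per-length levels (y axis, log scale) of Fosl2 to Fos (left) and Jund to Junb (right) in each library (x axis), with exon lengths of the counting annotation (circles) and of GENCODE M21 (diamonds) and a dashed line at equal levels. Both ratios are separated between the cultures, and for Jund to Junb the pro-myeloid libraries change sides of the line with the lengths used.

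Summed over the family, Fos, Fosb and Fosl2 averaged 69.3 ± 59.0 CPM in pro-lymphoid and 239 ± 98.8 CPM in pro-myeloid libraries (exact permutation p = 0.1, SD, n = 3). The sums were 46.6, 24.9 and 136 CPM in lymphoid replicates 1, 5 and 6. In myeloid replicates 2, 3 and 4 they were 179, 353 and 184 CPM, without overlap in this unit. Only Fosl2 had the lower mean in pro-lymphoid culture (9.12 against 195 CPM). Fos (53.1 against 38.8 CPM) and Fosb (7.07 against 4.56 CPM) had the higher mean there. Per length in the counting annotation the family was not separated. Fos alone had 51.9 RPKM in lymphoid replicate 6. In myeloid replicate 2, Fos, Fosb and Fosl2 had 7.36, 0.0966 and 27.9 RPKM. Jun, Junb and Jund summed to 479 ± 59.9 CPM in pro-lymphoid and 419 ± 168 CPM in pro-myeloid culture (exact permutation p = 0.6). The opposite changes of Junb and Jund thus stood beside a Jun-family sum that overlapped between the cultures. The Egr1, Egr2 and Egr3 sum was 16.8 ± 13.4 CPM in pro-lymphoid and 34.2 ± 42.2 CPM in pro-myeloid culture (exact permutation p = 0.7).

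The spread within a culture was wider for Fos and Egr1 than for Junb and Jund, and all 4 spread more widely than the median gene in both cultures. The highest library exceeded the lowest 5.43-fold in pro-lymphoid and 5.19-fold in pro-myeloid culture for Fos, and 7.87-fold and 39.6-fold for Egr1. For Jund it was 1.25-fold in pro-lymphoid and 2.01-fold in pro-myeloid culture, and for Junb 1.30-fold and 1.74-fold. Among genes with a mean of at least 5 CPM the median was 1.23-fold in pro-lymphoid and 1.32-fold in pro-myeloid culture, and the 95th percentile 2.44-fold and 2.70-fold. In pro-lymphoid culture 1.71% of such genes spread more widely than Fos and 1.25% more widely than Egr1, against 36.6% for Junb and 44.1% for Jund. The shares in pro-myeloid culture were 1.69% for Fos, 0.337% for Egr1, 16.9% for Junb and 10.6% for Jund. Fosl2, although called, spread 4.46-fold in pro-lymphoid culture (2.17% of such genes wider) and 1.61-fold in pro-myeloid culture (22%). For Jun the shares were 5.76% and 2.65%, for Atf3 6.42% and 2.3% and for Fosb 0.358% and 0.368% in pro-lymphoid and pro-myeloid culture.

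All 10 members were highest in myeloid replicate 3 among the pro-myeloid libraries, where 35.5% of all tested genes were. Among the pro-lymphoid libraries, 8 of 10 were highest in lymphoid replicate 6, where 28.6% of all tested genes were, the exceptions being Fosl2 and Atf3. Of 32 other immediate early genes, 18 (56.2%) were highest in myeloid replicate 3 and 15 (46.9%) in lymphoid replicate 6. Members share these libraries and are not independent of each other. Heat shock genes summed to 7068 CPM in lymphoid replicate 6, the highest of its culture (6718 and 6621 CPM in lymphoid replicates 1 and 5), and to 3864 CPM in myeloid replicate 3, the lowest of its culture (5635 and 4151 CPM in myeloid replicates 2 and 4). Hspa8, the largest part of the sums, had 4188, 4008 and 4070 CPM in lymphoid replicates 1, 5 and 6. It had 3400, 2450 and 2378 CPM in myeloid replicates 2, 3 and 4. It was thus highest in lymphoid replicate 1 and lowest in myeloid replicate 4, and the order of the sums did not follow this gene alone. Of 9 tested heat shock genes, 4 were highest and 4 lowest of their culture in myeloid replicate 3. In lymphoid replicate 6, 2 were highest and 1 was lowest. The labels give no harvest times or RNA quality, and the part of either in this spread was not tested.

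**Figure D4:**
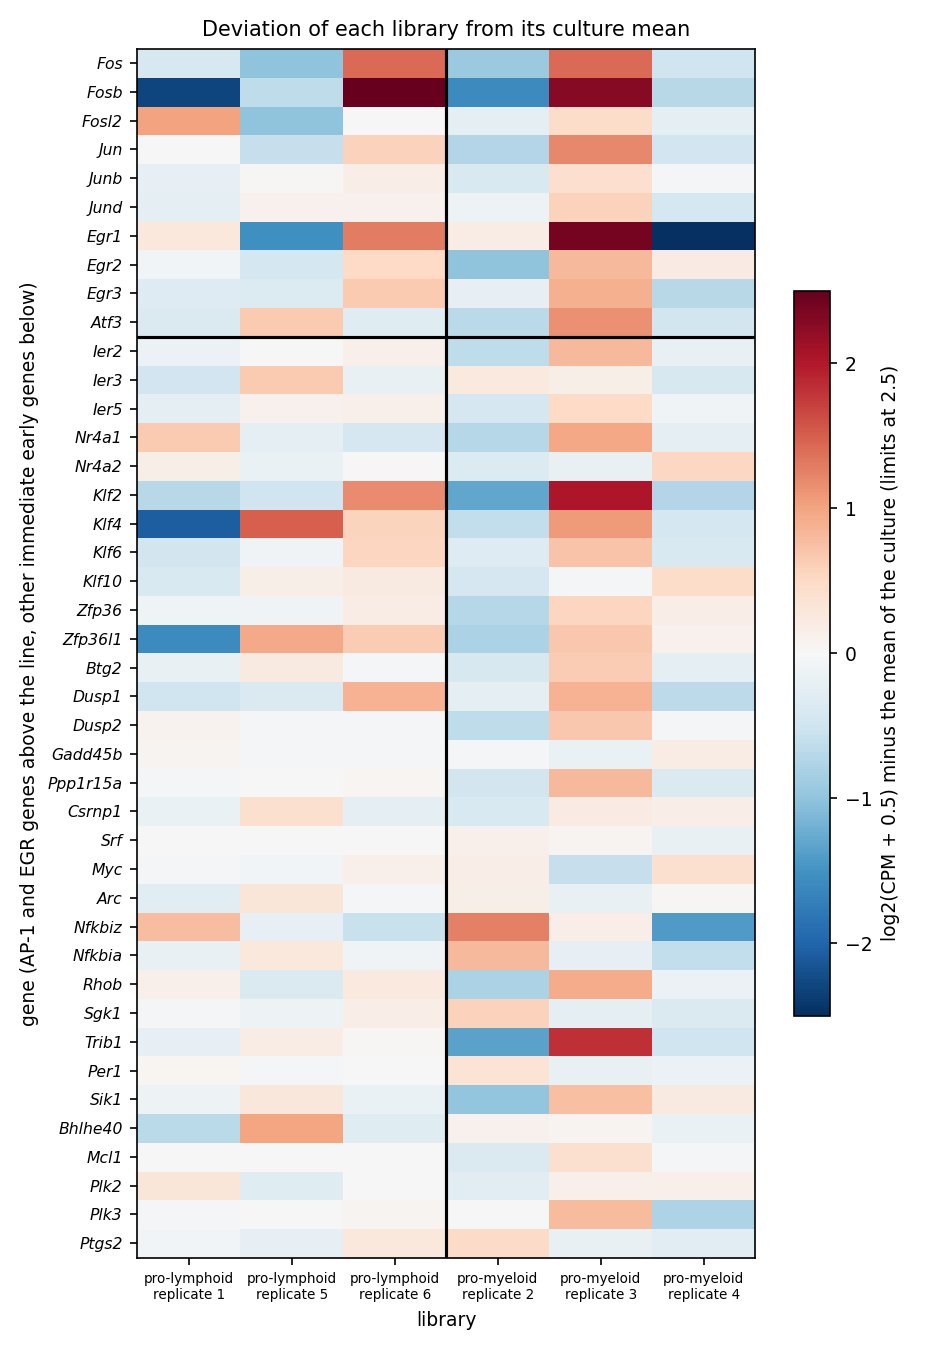
Deviation of each library (x axis) from the mean of its culture in log2(CPM + 0.5) for the 10 members (above the line) and 32 other immediate early genes (below, y axis), red where above and blue where below the mean, with colours cut at 2.5. Lymphoid replicate 6 is above the mean for Fos, Fosb and Egr1, and myeloid replicate 3 is above it for all 10 members.

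Profiles over the 6 libraries were compared by the root mean square difference of centred log2(CPM + 0.5) values among genes with a mean of at least 5 CPM. Closest to Fos were Jun (0.638), Slc25a23 (0.654) and Klf6 (0.678). Closest to Jun were Hist1h2bc (0.257), Rhob (0.324) and Ppp1r15a (0.389). Closest to Egr1, and farther from it than those were from Fos or Jun, were Jun (1.17), Fos (1.17) and Dusp1 (1.23). Klf6, Rhob, Ppp1r15a and Dusp1 are themselves in the list of other immediate early genes.

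Among the other immediate early genes the shift was mostly downward in pro-lymphoid culture. Of 32 tested, 3 rose (9.38%), 10 fell (31.2%) and 19 did not pass, against 16.8% higher and 20.6% lower over all tested genes, and the median log2 fold change was -0.63. Sgk1, a serum- and glucocorticoid-induced kinase gene, fell by 3.02 ± 0.38 on the log2 scale and Zfp36, which encodes the mRNA-destabilizing protein tristetraprolin, by 1.93 ± 0.30. Zfp36 had 42.5, 42.7 and 52.0 CPM in lymphoid replicates 1, 5 and 6, against 100, 238 and 184 CPM in myeloid replicates 2, 3 and 4. Srf itself fell by 0.85 ± 0.12 (85.9 ± 0.916 in pro-lymphoid and 155 ± 17.6 CPM in pro-myeloid culture, SD, n = 3, edgeR adjusted p = 0.00191). The genes that rose were Sik1, a salt-inducible kinase gene (2.98 ± 0.43; 140 ± 25.8 in pro-lymphoid and 17.8 ± 9.63 CPM in pro-myeloid culture), Plk2 (2.41 ± 0.39) and Myc (1.31 ± 0.24). Without myeloid replicate 2, 6 rose and 16 fell. The number lower was 7 without lymphoid replicate 6, and 8 without lymphoid replicate 1 or without myeloid replicate 4. Cyr61 had 0 counts throughout.

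Of the partners of the members, Nab2 and Crem differed most. Nab2, a corepressor that binds EGR proteins and is itself a known EGR target, fell by 3.12 ± 0.35 (0.515, 0.654 and 0.372 CPM in lymphoid replicates 1, 5 and 6, against 4.43, 5.30 and 3.77 CPM in myeloid replicates 2, 3 and 4, edgeR adjusted p = 0.000824). Its relative Nab1 overlapped between cultures (log2 fold change 0.071), and Egr4 had 0 counts in every library. Of 6 tested relatives of AP-1 (Batf, Jdp2, Atf2, Atf7, Creb1 and Crem), 1 rose (16.7%) and 0 fell (edgeR), against 16.8% and 20.6% of all tested genes. The numbers were the same at an unadjusted p under 0.05, by DESeq2 and by limma-voom. The riser was Crem, a CREB-family gene with activator and repressor forms (2.99 ± 0.21; 24.7, 21.5 and 29.0 CPM in lymphoid replicates 1, 5 and 6, against 2.81, 3.67 and 3.01 CPM in myeloid replicates 2, 3 and 4, edgeR adjusted p = 0.000133). Fosl1, Batf2 and Batf3 were too low to be tested.

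Genes that act upstream of the members were counted next. Of 6 SRF, ternary complex and MRTF factor genes, 0 rose and 2 fell (edgeR, and the same numbers unadjusted, by DESeq2 and by limma-voom), Srf and the ternary complex factor gene Elk3 (-0.89 ± 0.18). That is 0% higher and 33.3% lower, against 16.8% and 20.6% of all tested genes. Of 24 tested MAP kinase cascade genes, 4 rose, 9 fell and 11 did not pass (median log2 fold change -0.24). That is 16.7% higher and 37.5% lower, against 16.8% and 20.6% of all tested genes, so that the share of rises is at the background. The number lower was 5 without lymphoid replicate 5 and 4 without lymphoid replicate 6, and the number higher 2 without myeloid replicate 4. Of the p38 genes, Mapk11 rose by 3.56 ± 0.48 and Mapk12 by 2.98 ± 0.67, whereas Mapk13 fell by 4.49 ± 0.45. Mapk14, the p38 gene with by far the most reads, was added after its values had been seen. It had 273, 200.1 and 212 CPM in lymphoid replicates 1, 5 and 6, against 326, 336 and 308 CPM in myeloid replicates 2, 3 and 4, and fell by 0.50 ± 0.14 (edgeR adjusted p = 0.0317). Mapk14 did not pass without scaling factors (0.0621) or when lymphoid replicate 5, lymphoid replicate 6, myeloid replicate 3 or myeloid replicate 4 was left out (0.0697 to 0.124). Mapk12, at 0.699 ± 0.491 in pro-lymphoid and 0.0872 ± 0.0278 CPM in pro-myeloid culture, lost its call without myeloid replicate 4. The JNK gene Mapk8, whose product phosphorylates c-Jun, rose by 0.73 ± 0.13, its kinase gene Map2k4 fell by 0.59 ± 0.12, and Rps6ka3, a kinase gene of the ERK branch, fell by 2.48 ± 0.33. Of 9 tested MAP kinase phosphatase genes, which switch these kinases off, 2 rose (22.2%) and 0 fell (edgeR), against 16.8% and 20.6% of all tested genes. At an unadjusted p under 0.05, 3 were higher and 1 was lower, and DESeq2 called 3 as higher and 1 as lower and limma-voom 4 and 1. Dusp6, which acts on ERK, rose by 4.24 ± 0.25 (109 ± 22.2 in pro-lymphoid and 5.73 ± 1.35 CPM in pro-myeloid culture). Dusp4 rose by 2.0 ± 0.45, and it did not pass when lymphoid replicate 5, lymphoid replicate 6 or myeloid replicate 4 was left out.

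Of 13 tested textbook targets of AP-1 and EGR, 2 rose, 4 fell and 7 did not pass (median log2 fold change 0.0092). That is 15.4% higher and 30.8% lower, against 16.8% and 20.6% of all tested genes. Plaur, the urokinase receptor gene, fell by 2.70 ± 0.38 and Spp1, which encodes osteopontin, by 3.94 ± 0.71 (19.7, 15.3 and 19.4 CPM in lymphoid replicates 1, 5 and 6, against 55.1, 455 and 325 CPM in myeloid replicates 2, 3 and 4). Timp1, a metalloproteinase inhibitor gene, was called as lower, at 0.0178 ± 0.0154 in pro-lymphoid and 3.78 ± 2.96 CPM in pro-myeloid culture (edgeR adjusted p = 0.00490). Ccnd1, which encodes cyclin D1, rose by 6.16 ± 0.37 (548 ± 127 in pro-lymphoid and 7.68 ± 3.29 CPM in pro-myeloid culture). Tnf rose by 1.74 ± 0.53, and it passed without myeloid replicate 2 but not when any of the other 5 libraries was left out (adjusted p 0.0603 to 0.102).

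**Figure D5:**
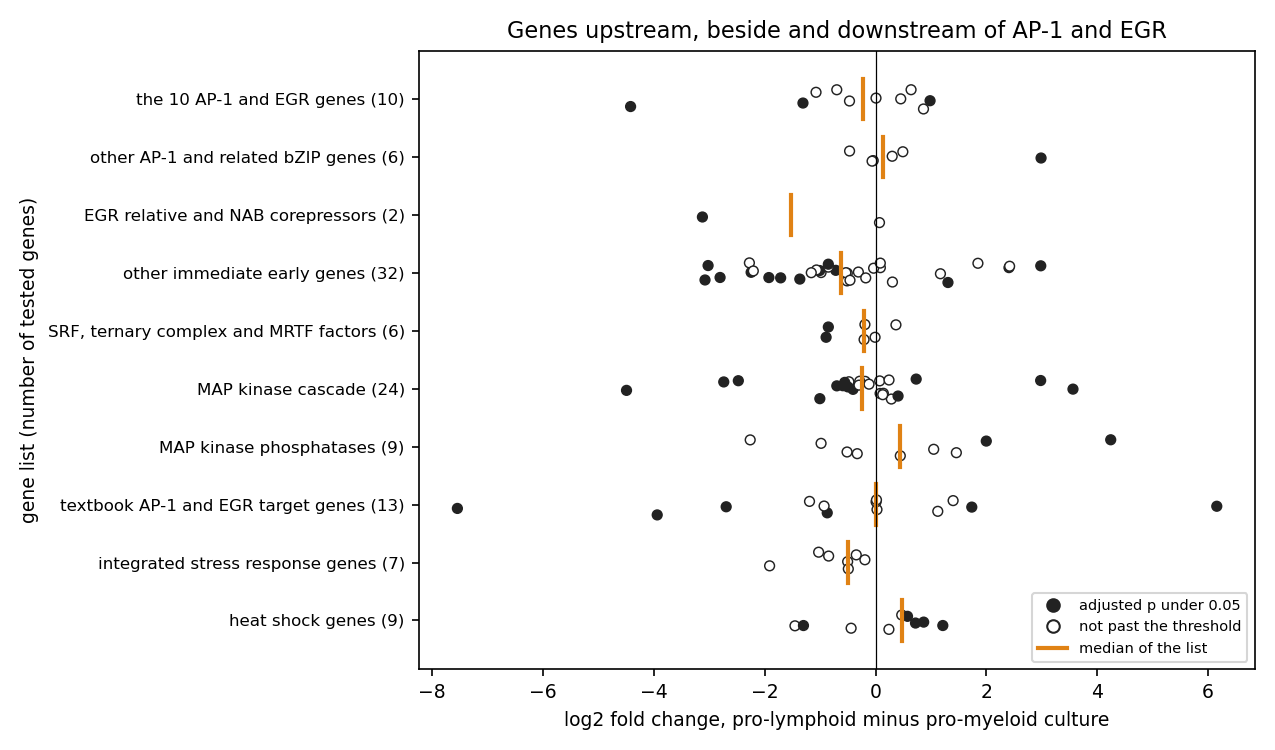
Log2 fold changes (x axis, pro-lymphoid minus pro-myeloid culture) of the tested genes of 10 lists (y axis, with the number tested), each point being 1 gene, filled where the edgeR adjusted p was under 0.05, with an orange bar for the list's median. The median is -0.63 for other immediate early genes and 0.45 for MAP kinase phosphatases, and Srf, Dusp1 and Dusp2 stand in 2 lists each.

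Stress genes were set beside Atf3 and the early genes. Of 9 tested heat shock genes, 4 rose (44.4%) and 1 fell (11.1%), against 16.8% higher and 20.6% lower over all tested genes. The list summed to 6621 to 7068 CPM in pro-lymphoid and 3864 to 5635 CPM in pro-myeloid libraries. Hspe1, Hspd1 and Hspa8, chaperone genes, rose by 0.72 ± 0.15, 0.87 ± 0.22 and 0.58 ± 0.18, while Hspa1b, the strongly inducible Hsp70 gene with a near-identical copy in Hspa1a, fell by 1.30 ± 0.40. Hspd1 did not pass when lymphoid replicate 6 or myeloid replicate 4 was left out, Hspa1b when lymphoid replicate 6, myeloid replicate 3 or myeloid replicate 4 was, and Hspa8 when any of the 5 libraries other than myeloid replicate 2 was. The number of higher genes fell to 1 or 2 when any of those 5 libraries was left out. Of 7 tested genes of the integrated stress response, the pathway through which Atf4 induces Atf3, 0 rose and 0 fell (edgeR), where 37.4% of all tested genes passed. At an unadjusted p under 0.05, 0 were higher and 1 was lower, DESeq2 called the same numbers, and limma-voom called 0.

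Of the summed markers of stromal, mast, erythroid, macrophage and T cells, only the mast cell and basophil sum was separated between the cultures. Of the stromal markers, Thy1 and Col1a1 were called as lower in pro-lymphoid culture (Col1a1 not without lymphoid replicate 5 or 6), and the list summed to 1.93 to 19.5 CPM in pro-lymphoid and 6.28 to 33.9 CPM in pro-myeloid libraries, with 4 of 11 genes at 0. Of the mast cell and basophil markers, Mcpt8 and Ms4a2 were called as lower, and the list summed to 0.445 to 2.02 CPM in pro-lymphoid and 9.58 to 30.7 CPM in pro-myeloid libraries, with Cma1, Tpsb2 and Fcer1a at 0. Cpa3, a mast cell gene of that list that was too low to be tested, had 2, 0 and 5 counts in lymphoid replicates 1, 5 and 6, against 5, 24 and 375 counts in myeloid replicates 2, 3 and 4. Of the macrophage markers, Mertk was called as lower, at 0.0262 ± 0.0453 in pro-lymphoid and 0.366 ± 0.0466 CPM in pro-myeloid culture (not without lymphoid replicate 1, lymphoid replicate 6 or myeloid replicate 4), and of 1 tested erythroid gene (Klf1) 0 passed (edgeR, also 0 unadjusted, by DESeq2 and by limma-voom). The T cell markers were too low to be tested. Of 6 progenitor markers, 3 rose (Kit, Cd34 and Flt3, Kit not without lymphoid replicate 6) and 2 fell (Hoxa9 and Meis1). That is 50% higher and 33.3% lower, against 16.8% and 20.6% of all tested genes. The part of these markers in the differences of the AP-1 genes was not tested.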

How the data were processed

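RNA of 6 libraries (3 from pro-lymphoid and 3 from pro-myeloid culture) was poly(A)-selected, prepared with a NEBNext Ultra kit and sequenced as single-end reads, per the labels' protocols. The authors deposited raw read counts per gene, made with featureCounts 1.5.1 on primary alignments over UCSC mm10 exons and without strand, per the file headers. Trimmomatic, Bowtie, TopHat and DESeq2 are also named, per the submitters' processing notes, without settings. In the counting annotation 0 other genes shared an exon with a member.

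The deposited counts were tested with edgeR 4.0.16 (R 4.3.3): filterByExpr, TMM factors (0.961 to 1.05), quasi-likelihood test (two-sided), Benjamini-Hochberg adjustment over 12477 genes and a threshold of 0.05. Positive log2 fold changes mean higher in pro-lymphoid culture; their SE and interval come from the F statistic and its degrees of freedom. SDs are between libraries, and depth limits cover counting error only. The 10 members and 15 other lists (164 entries, 5 found under an older symbol, 1 unmatched) were chosen with earlier results of these data known. Up to 3 genes per list and direction with the smallest adjusted p were named. Alternatives were other scalings and filters, DESeq2 1.42.0, limma-voom (limma 3.58.1) and each library left out, and, chosen after seeing the data, GENCODE M21 exon lengths. The reads were not recounted over GENCODE M21 exons. Promoter windows are from RefSeq (GRCm38.p6), the build of mm10. The procedure was tested on simulated data with fewer changed genes than were called here and the same spread for every gene. That test does not cover genes that vary between libraries as Fosb and Egr1 did.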

Additional observations from a re-analysis of the deposited data

How the results depend on the processing

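No paired analysis was possible because the cultures share no replicate number. Fosl2 and Junb (lower) and Jund (higher) passed with RLE size factors, upper-quartile factors or none, without the filter or with a minimum of 1 CPM in 3 libraries, and with DESeq2 or limma-voom. With 1 library left out, the number of higher members ran from 0 to 2 and that of lower members stayed at 2, while the number of genes called, 4665 in all libraries, ran from 2893 (without lymphoid replicate 6) to 5224 (without myeloid replicate 2). Over the same fits the log2 fold change of 6 of the 7 members without a call ran from -0.62 to 1.54 for Fos, -2.78 to 3.23 for Fosb, -1.04 to 0.18 for Jun, -1.88 to 0.73 for Egr1, -1.01 to 0.28 for Egr2 and -0.85 to 1.28 for Egr3. The low end came without lymphoid replicate 6 and the high end without myeloid replicate 3 for each of these. Atf3 ran from 0.42 (without lymphoid replicate 5) to 1.82 (without myeloid replicate 3, where it passed). Egr3 was also below 0 without myeloid replicate 2 (-0.24) or 4 (-0.49) and with DESeq2 (-0.010), as was Fosb with limma-voom (-0.33). Klf6 ran from -0.36 to 0.42, and was 0.0075 with upper-quartile factors, 0.0097 without factors and 0.028 with limma-voom, and Hist1h2bc ran from -0.95 to 0.0067. The cause was not tested. The log2 ratio of the Egr sums was 0.72 without myeloid replicate 3, against -1.03 in all libraries. Depth limits Egr2 and Egr3, with 6 to 62 counts, and Fosb in lymphoid replicate 1, with 2.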

Other observations

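Among genes driven by Atf4, Asns and Trib3 were set beside Atf3, and were chosen after their values had been seen. Asns, which encodes asparagine synthetase, had 61.0, 198 and 104 CPM in lymphoid replicates 1, 5 and 6, against 67.2, 205 and 242 CPM in myeloid replicates 2, 3 and 4. Trib3, a stress-induced pseudokinase gene, had 1.52, 14.7 and 3.10 CPM in lymphoid replicates 1, 5 and 6, against 5.23, 35.5 and 32.0 CPM in myeloid replicates 2, 3 and 4. For both, lymphoid replicate 5 was the highest of its culture, as for Atf3, whereas myeloid replicate 4 was near or above myeloid replicate 3 for Trib3 and Asns and below it for Atf3 (2.17 CPM in myeloid replicate 4 and 7.64 CPM in myeloid replicate 3). In pro-myeloid culture Trib3 was highest in replicate 3 and lowest in replicate 2, the order also seen for Atf3, Fos and Jun. Of the other tested genes of the integrated stress response, Sesn2 and Ddit4 had this order. Atf4, Ddit3, Chac1 and Asns were instead highest in myeloid replicate 4.

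2 further early genes had most of their reads in myeloid replicate 3. Klf2, a zinc finger factor gene of quiescent lymphocytes, had 10.4, 12 and 39.8 CPM in lymphoid replicates 1, 5 and 6, against 23.7, 243 and 35.7 CPM in myeloid replicates 2, 3 and 4 (edgeR adjusted p = 0.105). Trib1, which encodes a pseudokinase that leads C/EBP alpha to degradation, had 1.76, 2.46 and 2.16 CPM in lymphoid replicates 1, 5 and 6, against 2.14, 23.2 and 4.25 CPM in myeloid replicates 2, 3 and 4 (edgeR adjusted p = 0.0767). Both were chosen after their values had been seen. Dusp9, a phosphatase gene, had 0.136, 5.05 and 1.35 CPM in lymphoid replicates 1, 5 and 6, against 10.5, 9.71 and 11.1 CPM in myeloid replicates 2, 3 and 4, where the groups did not overlap but the gene did not pass (edgeR adjusted p = 0.101).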
